A study of Mus musculus with 12 samples.

Results

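The CDR3 is the loop of a T cell receptor chain that forms where a V segment is joined to a J segment, in beta chains with a D segment between them, and it lies over the peptide that the receptor reads. Every CDR3 begins with a conserved cysteine of the V segment. A further, internal cysteine is rare. In mouse studies, cysteines near the middle of the loop have been described in strongly self-reactive receptors, which negative selection removes from the thymus or turns toward other T cell fates. A codon for an internal cysteine can come from the V segment itself, from the J segment, or from the N bases that terminal transferase adds at the join.

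Described here are the productive CDR3s (in frame and without a stop codon) that held a cysteine anywhere between the first and the last residue. They were found in 13163 of 735300 clonotypes, a clonotype being 1 deposited row of a library, with its nucleotide CDR3, V and J segments. The same nucleotide CDR3 could stand in more than 1 row of a library, as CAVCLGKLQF with TRAV7-5 did in 2, and such rows were counted apart. The alpha chains (TRA) contributed 440 of 163279 clonotypes, with 677 of 341219 reads and 378 distinct amino acid sequences. The beta chains (TRB) contributed 12723 of 572021 clonotypes, with 25115 of 1233404 reads and 10670 distinct amino acid sequences. No alpha CDR3 had more than 1 internal cysteine, and 11 beta CDR3s had 2.

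The libraries came from thymocytes of Chrna9-/- mice (KO) and of wild-type (WT) mice. Chrna9 encodes the alpha 9 subunit of nicotinic acetylcholine receptors, and the series title asks about cholinergic control of negative selection. The groups were KO CD4 single-positive (CD4SP), WT CD4SP, KO CD8 single-positive (CD8SP) and WT CD8SP thymocytes, with 3 mice each, none of them treated; the sources used here give neither strain nor age. CD4SP and CD8SP cells were sorted from the thymus by CD4 and CD8 alone, 1000000 and 330000 cells a library, and the mice were taken as pairs, 2 male and 1 female. The gate can therefore hold natural killer T cells, mucosal-associated invariant T cells and immature cells. Libraries of receptor transcripts do not measure Chrna9, so the knockout could not be checked. They held 19847 to 33885 productive alpha reads and 74021 to 134169 productive beta reads each. Reads carried no molecular identifier, so all intervals cover counting error only, and fewer cells of a clone cannot be told apart from less receptor RNA per cell. None of the 156 clonotypes with the invariant natural killer T alpha chain and none of the 22 with the mucosal-associated invariant chain held an internal cysteine. With 440 in all 163279 alpha clonotypes, sets this small can hold none by number alone, so these counts do not set them apart.

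The sequences below show the 3 ways in which these CDR3s were built. They are printed from the first to the last base of the CDR3, 5′ to 3′, with the codon of the internal cysteine in capitals. The first pair used TRBV1, the second pair TRBV31, the third pair carried the cysteine just after the middle of a beta chain, and the last 3 are alpha chains. Each is the nucleotide form with the most reads of a clonotype among the 8 found in the most libraries, or of the clonotype with the most reads in a group. The 2 libraries of the TRBV29 clonotype were the KO CD4SP and KO CD8SP libraries of 1 mouse.

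TRBV1 with TRBJ2-7, in 11 libraries: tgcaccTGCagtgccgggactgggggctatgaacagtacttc
TRBV1 with TRBJ1-1, in 9 libraries: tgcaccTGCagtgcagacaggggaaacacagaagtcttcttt
TRBV31 with TRBJ2-1, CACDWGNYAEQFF, in 4 libraries: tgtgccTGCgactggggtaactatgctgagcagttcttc
TRBV31 with TRBJ2-7, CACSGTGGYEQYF, in 2 libraries: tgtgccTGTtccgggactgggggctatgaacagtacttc
TRBV29 with TRBJ2-4, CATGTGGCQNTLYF, in 2 libraries: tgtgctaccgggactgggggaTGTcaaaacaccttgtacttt
TRBV5 with TRBJ2-5, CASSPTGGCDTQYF, in 1 library: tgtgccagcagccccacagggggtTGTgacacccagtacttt
TRAV7-3 with TRAJ9, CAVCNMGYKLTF, in 3 libraries: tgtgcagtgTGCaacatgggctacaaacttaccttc
TRAV8-1 with TRAJ9, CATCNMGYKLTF, in 2 libraries: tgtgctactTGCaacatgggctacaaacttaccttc
TRAV7-2 with TRAJ22, in 2 libraries: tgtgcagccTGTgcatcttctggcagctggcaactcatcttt

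Beta chains with an internal cysteine were mostly TRBV1 chains. TRBV1 (mm10, chromosome 6, 40891296 to 40891885) is the V segment at the far 5′ end of the beta locus, and the third residue that its sequence gives to the CDR3 is itself a cysteine, as the first pair above shows. Of 11165 TRBV1 clonotypes, 11116 (99.6%) held an internal cysteine, and 11115 had it at residue 3. These were 87.4% of all beta clonotypes with an internal cysteine. The codon was TGC for 11097 of their 11126 cysteines, which is the base triplet of the segment, and in 11098 of them all 3 bases were assigned to V. TRBV1 took 1.80% ± 0.11 of the beta reads of CD4SP libraries and 1.75% ± 0.12 of those of CD8SP libraries (SD, n = 6 mice). Of the 25115 beta reads with an internal cysteine, 21779 were TRBV1 reads.

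Outside TRBV1, internal cysteines in beta chains were rare. One was found in 1607 of 560856 clonotypes (0.287%), against 0.269% of alpha clonotypes. TRBV31 (chromosome 6, 41557693 to 41558371), the only V segment that lies 3′ of the J segments in inverted direction, held 597 of them, 0.890% of its 67062 clonotypes. The third residue of TRBV31 chains was tryptophan, with the codon TGG, in 96.6% of clonotypes, and in 463 clonotypes it was a cysteine. In the second pair above, the capitals stand where that tryptophan codon would be, and the third base was not assigned to V. Among the 21 V segments with at least 500 clonotypes, the next highest shares belonged to TRBV30 (0.683%), TRBV2 (0.393%) and TRBV23 (0.351%), against a median of 0.239%. These shares rest on 13, 17 and 12 clonotypes with an internal cysteine. Of the segments with fewer than 500 clonotypes, TRBV22 (11 of 32), TRBV24 (12 of 289) and TRBV21 (3 of 86) had higher shares. TRBV5, TRBV29 and TRBV13-3 had 139, 120 and 116 such clonotypes, but these were only 0.177%, 0.241% and 0.191% of their clonotypes. TRBV13-1 had the lowest share, 0.140%.

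Among J segments, the median share of beta clonotypes with an internal cysteine was 2.19%, TRBV1 included. The highest shares were 2.89% of clonotypes with TRBJ1-5, 2.63% with TRBJ2-2, 2.53% with TRBJ1-6, 2.39% with TRBJ2-4 and 2.25% with TRBJ2-5, and the lowest was 1.72% with TRBJ1-2. TRBJ2-7 contributed the most, 2884 clonotypes, followed by TRBJ2-5 with 1540, TRBJ2-1 with 1502, TRBJ2-4 with 1378 and TRBJ1-1 with 1190. Without TRBV1, the highest share was 0.362% with TRBJ2-2 and the lowest was 0.188% with TRBJ1-1.

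In alpha chains no V segment with at least 500 clonotypes gave an internal cysteine to most of them. The highest shares were 0.943% for TRAV13N-4, 0.928% for TRAV5-4, 0.541% for TRAV13-1, 0.513% for TRAV12N-2 and 0.511% for TRAV7D-3, against a median of 0.258% over these 58 segments, and the first pair rests on 6 and 5 clonotypes. TRAV7-5 contributed the most clonotypes, 62, followed by TRAV7-2 with 33, TRAV6-6 with 24, TRAV7D-5 with 23 and TRAV7D-3 with 17. TRAV6-4 had none in 971 clonotypes, which allows a share of up to 0.309%. Many TRAV segments have near-identical copies: every clonotype of TRAV7-2, TRAV6-6 and TRAV7D-5 had a second V or J segment with the same score, so the values of these copies are uncertain. Of the alpha clonotypes with an internal cysteine, 29.8% had such a tie.

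Alpha shares also varied by J segment. TRAJ38 (chromosome 14, 54180574 to 54180635) had the highest share, 13 of 1184 clonotypes (1.1%). TRAJ9 (chromosome 14, 54209393 to 54209450) followed with 0.823% of 6198 clonotypes and contributed the most of any J segment, 51 of the 440. TRAJ58 (0.664%), TRAJ43 (0.598%) and TRAJ32 (0.565%) came next, against a median of 0.217% over 43 segments. Their shares rest on 8, 20 and 14 clonotypes with an internal cysteine. TRAJ31, TRAJ23, TRAJ30 and TRAJ22 gave 29, 28, 24 and 22 clonotypes at shares of 0.299%, 0.321%, 0.341% and 0.214%. TRAJ47 had the lowest share, 1 of 1853 clonotypes.

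The cysteine sat in different places in the 3 sets, as the plot of positions shows. Position was counted from the middle residue (length divided by 2, rounded up), with negative numbers toward V. In alpha chains 402 of 440 cysteines (91.4%) lay before the middle, most often at residue 4 of the CDR3 (201, or 45.7%), and only 16 at the middle itself. In beta chains without TRBV1, 925 of 1608 (57.5%) lay before the middle, 112 at it and 571 after it, and residue 3 alone held 539 (33.5%), most of them in TRBV31 chains. In TRBV1 chains, 821, 2728 and 1837 cysteines lay 3, 4 and 5 residues before the middle in CD4SP libraries, and 652, 2528 and 2129 in CD8SP libraries. At residue 3, a longer CDR3 puts the cysteine farther from the middle. A cysteine within 2 residues of the middle was present in 251 alpha clonotypes, in 679 beta clonotypes without TRBV1 and in 79 with it. At the edge of that window, alpha chains held 150 cysteines at distance 2 and 146 at distance 3, and beta chains without TRBV1 held 317 and 430.

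**Figure D1:**
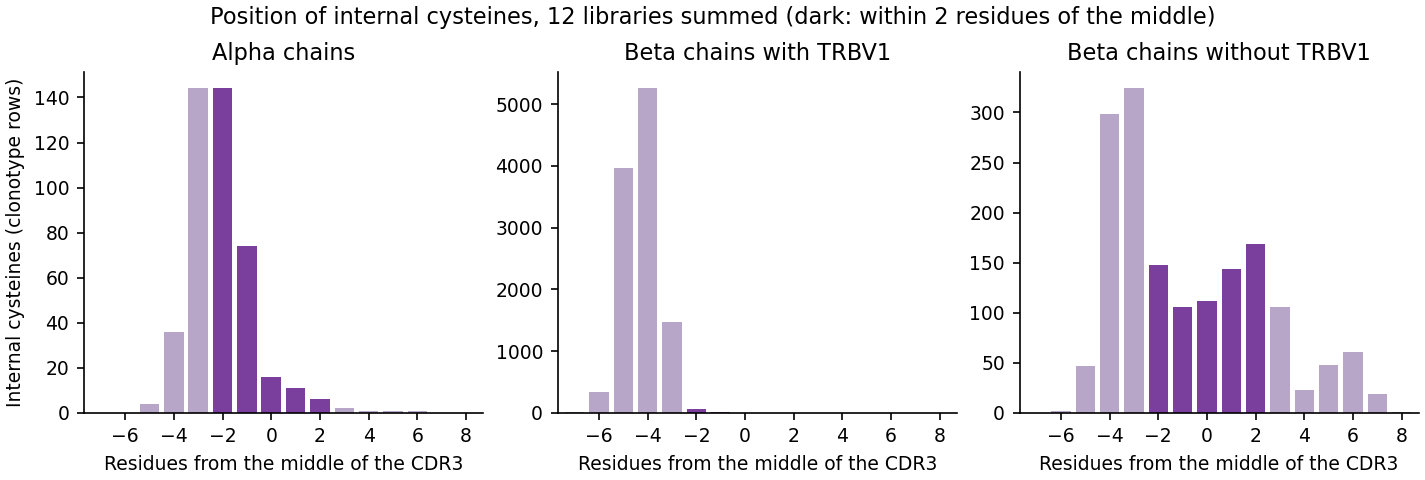
Number of internal cysteines (clonotype rows, 12 libraries summed) against the distance in residues from the middle of the CDR3, for alpha chains, beta chains with TRBV1 and beta chains without it; dark bars lie within 2 residues of the middle. Alpha cysteines gather before the middle (402 of 440), TRBV1 cysteines mostly 3 to 5 residues before it, and other beta cysteines on both sides (925 before, 571 after).

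Most internal cysteines outside TRBV1 lay at the join of V and J. Of 440 alpha cysteines, 312 (70.9%) had a codon that did not lie wholly within the bases of V or wholly within those of J. The commonest forms were 2 unassigned bases before the first J base (122 codons), 3 unassigned bases (106) and 1 unassigned base before 2 J bases (66). In beta chains without TRBV1 this held for 1210 of 1608 codons (75.2%). The form with 2 V bases and 1 N base was commonest there (342 codons), followed by 2 N bases before the first J base (275). The remaining codons lay within sequence assigned to V or J, and most differed by 1 base from the codon that the other clonotypes of the segment carried at that place, 177 of 192 V-side and 203 of 214 J-side codons in beta chains, residue 3 of TRBV1 left out. In alpha chains these were 67 of 73 and 40 of 53. Few clonotypes, 5 alpha and 2 beta, differed by 1 base from a clonotype with at least 10 times their reads in the same library. These were 1.14% of alpha clonotypes with an internal cysteine against 0.991% of the others, and 0.124% against 0.128% in beta chains without TRBV1. The larger clonotype needed at least 10 reads, while the other beta clonotypes averaged 1.83 reads in CD4SP and 2.49 in CD8SP libraries. This check could therefore miss most base errors. The median of the lowest base quality in the CDR3 was 38 for beta clonotypes with an internal cysteine without TRBV1, against 58 for the others, and 38 for both in alpha chains; the part of base quality in the result was not tested.

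TGC and TGT were used about equally outside TRBV1, with 237 and 203 codons in alpha chains and 890 and 718 in beta chains. The residue after an alpha cysteine was most often asparagine (114 of 440), as in the TRAJ9 chains above. In the TRAV7-3 sequence all bases of the cysteine codon were assigned to V, and in the TRAV8-1 sequence all to J. Near the middle of beta chains without TRBV1, the residue before the cysteine was most often glycine (224 of 679, or 33.0%) and the residue after it alanine (105), glutamine (95) or glutamic acid (92). The distribution of codon sources did not differ between CD4SP and CD8SP libraries past the threshold in exact sign-flip tests over 6 mice. The smallest adjusted p of 9 such comparisons was 0.422, and the join's share of beta codons without TRBV1 was 76.2% ± 1.2 in CD4SP and 73.4% ± 5.4 in CD8SP libraries (SD, n = 6 mice).

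Most clonotypes with an internal cysteine, defined here by amino acid CDR3 and V segment, were found in 1 library only. With TRBV1 these were 8232 of 9166 (89.8%), against 85.0% of the beta clonotypes without an internal cysteine. The TRBV1 and TRBJ2-7 clonotype printed first was found in 11 libraries and all 6 mice, in 11 nucleotide forms with 35 reads in all: 16 in KO CD4SP, 6 in WT CD4SP, 4 in KO CD8SP and 9 in WT CD8SP libraries. The TRBV1 and TRBJ1-1 clonotype printed next was found in 9 libraries of 6 mice in 12 nucleotide forms with 34 reads. Of these, 4 were in KO CD4SP, 1 in WT CD4SP, 19 in KO CD8SP and 10 in WT CD8SP libraries. The other 6 of the 8 most shared beta clonotypes were TRBV1 chains too, in 7 to 9 libraries with 15 to 32 reads, among them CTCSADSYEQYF in 9 libraries and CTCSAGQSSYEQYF, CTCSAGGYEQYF and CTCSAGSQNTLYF in 7 each. Those in 7 libraries were 4 of 7 with that number, taken by their reads. The clonotypes with the most reads in WT CD4SP and WT CD8SP libraries were TRBV1 chains as well, with TRBJ2-5 (13 reads there) and with TRBJ1-1 (21 reads there). Without TRBV1, 1498 of 1511 beta clonotypes (99.1%) were in 1 library only, against the same 85.0%, and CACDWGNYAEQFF reached 4, with 11 reads in KO CD4SP and 4 in WT CD8SP libraries. Alpha clonotypes were in 1 library in 404 of 418 cases (96.7%), against 79.0% of the rest. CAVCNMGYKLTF was found with 4 different TRAV segments in 6 libraries, and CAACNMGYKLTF with 5 segments in 5 libraries, both from TRAJ9. Counted as single deposited rows, without summing over nucleotide forms or libraries, the largest alpha one with an internal cysteine had 5 reads and the largest beta one 14.

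Clonotypes with an internal cysteine held fewer reads than the others in alpha chains. Without the invariant chain, they averaged 1.36 ± 0.11 reads against 1.79 ± 0.07 for the other clonotypes in CD4SP libraries, and 1.74 ± 0.15 against 2.25 ± 0.07 in CD8SP libraries (SD, n = 6 mice). The means were lower in 6 of 6 mice in both (exact sign-flip test, p = 0.031 each, adjusted p = 0.0417 over 8 such comparisons). TRBV1 chains averaged 1.71 ± 0.06 reads against 1.83 ± 0.07 in CD4SP and 2.20 ± 0.10 against 2.49 ± 0.10 in CD8SP libraries, also lower in 6 of 6 mice with the same p-values. Because 11116 of 11165 TRBV1 clonotypes held the cysteine, they were set against clonotypes almost all of other V segments. Cysteine and V segment cannot be told apart in this comparison. Beta chains without TRBV1 averaged 1.74 ± 0.12 against 1.83 ± 0.07 reads in CD4SP and 2.45 ± 0.12 against 2.49 ± 0.10 in CD8SP libraries, and neither difference passed the threshold (exact sign-flip adjusted p = 0.0714 and 0.25). Among clonotypes of at least 2 reads both signs turned, to 0.0089 reads in CD4SP (exact sign-flip p = 0.906) and 0.223 in CD8SP libraries (exact sign-flip p = 0.031, unadjusted).

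Within 2 residues of the middle, beta chains without TRBV1 differed from the others in opposite directions in the cell types. They averaged 1.52 ± 0.17 reads in CD4SP libraries, where the other clonotypes averaged 1.83 ± 0.07, lower in 6 of 6 mice, and 2.69 ± 0.13 reads in CD8SP libraries, where the others averaged 2.49 ± 0.10, higher in 6 of 6 mice (exact sign-flip adjusted p = 0.0417 each). The difference between the cell types was -0.51 ± 0.19 reads (SD, n = 6 mice; exact sign-flip p = 0.031, the smallest that 6 mice can give). Without TRBV31 this difference was -0.34 and lost its call (exact sign-flip p = 0.0938). It was -0.41 without the largest clonotypes and -0.68 among clonotypes of at least 2 reads (exact sign-flip p = 0.031 each). None of 319 such clonotypes had 10 or more reads in CD4SP libraries, and 7 of 360 had in CD8SP libraries. The other clonotypes also averaged more reads in CD8SP libraries. Their share with 10 or more reads is not given here, so these counts do not set the cysteine apart. The excess in CD8SP rested on few clonotypes. Without the largest clonotype of each class and library it was 0.05 reads (exact sign-flip p = 0.656), and without TRBV31 it was 0.08 (p = 0.469). Among clonotypes of at least 2 reads it was larger, 0.57 reads (exact sign-flip p = 0.031). The difference in CD4SP was -0.26 reads without TRBV31 (exact sign-flip p = 0.0625) and -0.11 among clonotypes of at least 2 reads (exact sign-flip p = 0.406).

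The comparison of KO with WT asks whether loss of Chrna9 changed how many of the receptors that reached the CD4SP and CD8SP stage carried such a cysteine. No difference passed the threshold. In alpha chains of CD4SP cells the share of reads with an internal cysteine was 0.169%, 0.267% and 0.147% in KO and 0.269%, 0.183% and 0.207% in WT libraries. In alpha chains of CD8SP cells it was 0.186%, 0.189% and 0.12% in KO and 0.205%, 0.204% and 0.235% in WT libraries. These CD8SP groups did not overlap, and the mean difference was -0.05 ± 0.05 percentage points (SD, n = 3 pairs). The exact sign-flip test gave p = 0.25, the smallest that 3 pairs allow, and an adjusted p = 0.8 over 32 share comparisons; permuting labels without pairs gave p = 0.1, the smallest for 3 against 3. Each share rests on 35 to 82 reads, and the exact 95% binomial interval of the lowest CD8SP value, 0.0889% to 0.171%, overlapped that of the highest, 0.185% to 0.293%, in no part, while the other 4 intervals overlapped both.

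In beta chains the share of reads was 2.11%, 2.19% and 2.01% in KO CD4SP, against 2.24%, 1.98% and 1.93% in WT CD4SP libraries. It was 2.09%, 2.10% and 2.01% in KO CD8SP, against 2.01%, 2.06% and 1.76% in WT CD8SP libraries. The means differed by 0.05 ± 0.17 and 0.13 ± 0.11 percentage points (SD, n = 3 pairs; exact sign-flip p = 0.75 and 0.25, adjusted p = 0.923 and 0.8). Without TRBV1 the means were 0.283% ± 0.046 in KO and 0.293% ± 0.021 in WT CD4SP libraries, and 0.270% ± 0.020 in KO and 0.256% ± 0.036 in WT CD8SP libraries (SD, n = 3 each; exact sign-flip p = 0.75 for both). With cysteines within 2 residues of the middle, beta reads were 0.10% ± 0.029 in KO and 0.107% ± 0.028 in WT CD4SP libraries, and 0.163% ± 0.009 in KO and 0.140% ± 0.031 in WT CD8SP libraries. Alpha reads were 0.118% ± 0.022 and 0.120% ± 0.044 in KO and WT CD4SP libraries, and 0.0955% ± 0.0319 and 0.116% ± 0.034 in KO and WT CD8SP libraries (SD, n = 3 each). All the groups overlapped, and the plot of shares by library shows the points. Over the 24 planned genotype comparisons the lowest adjusted p was 0.8, and with 3 pairs none could have passed.

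**Figure D2:**
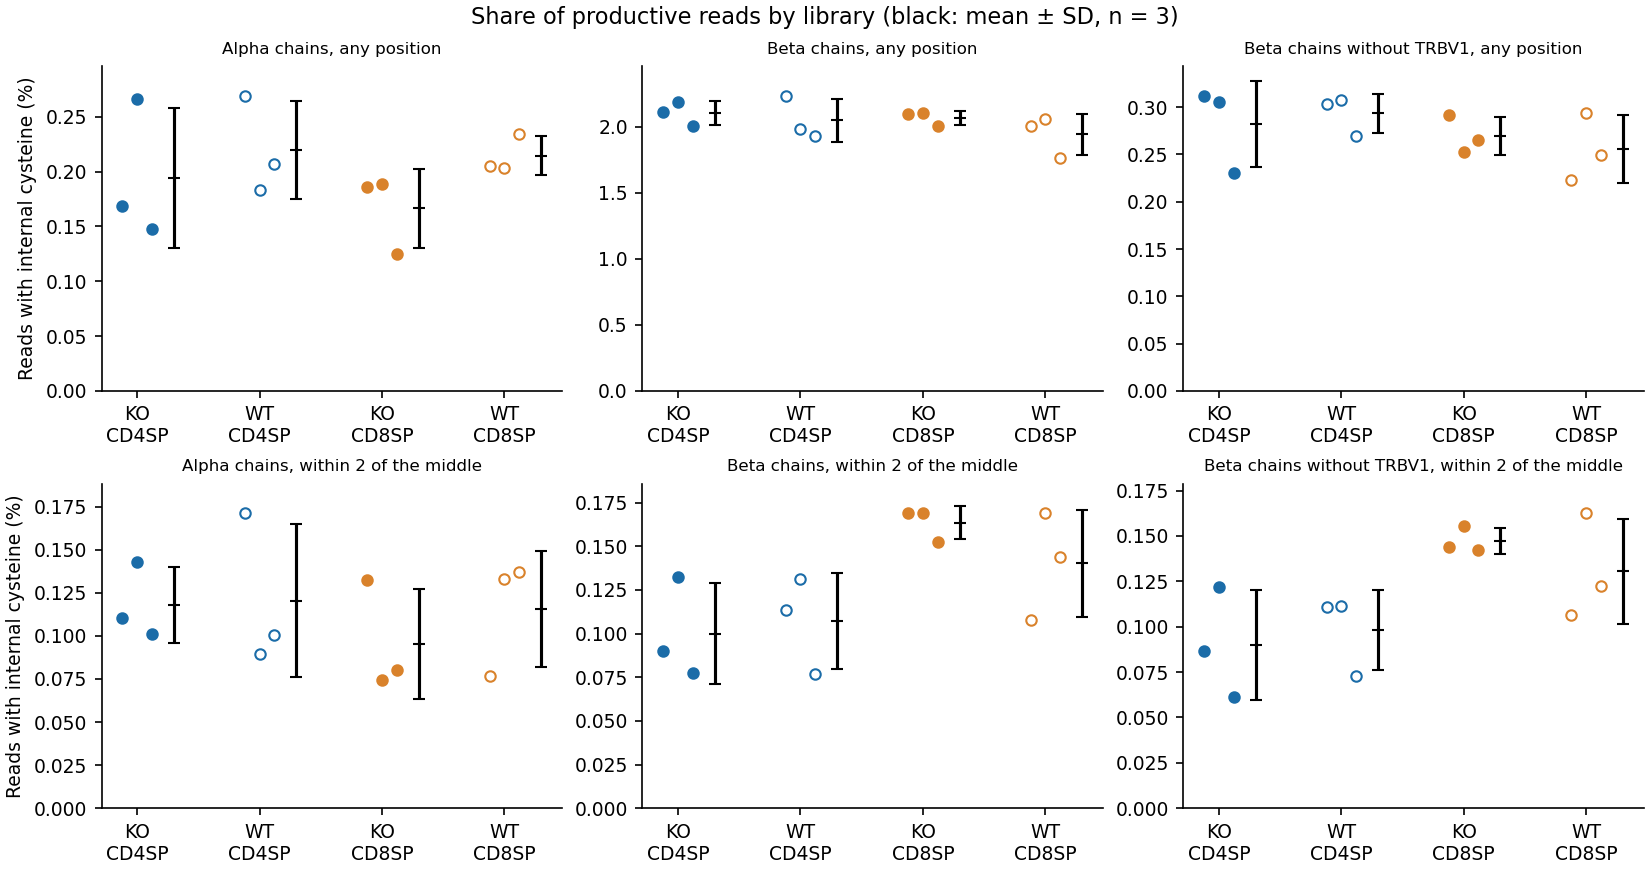
Share of productive reads with an internal cysteine (percent, upper row) and with one within 2 residues of the middle (lower row) in each library, for alpha chains, beta chains, and beta chains without TRBV1; filled points are KO, open points WT, blue CD4SP, orange CD8SP, and black bars the mean ± SD of 3 libraries. KO and WT points overlap except for alpha chains of CD8SP cells (KO 0.12% to 0.189%, WT 0.204% to 0.235%).

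To compare positions, reads were summed by residue and distance from the middle, and edgeR's quasi-likelihood test was run on the whole table of each chain. Cysteine was abundant enough to be tested at 3 positions of alpha chains (3, 2 and 1 residues before the middle) and at 9 positions of beta chains (5 before to 3 after). None of these 12 passed between KO and WT in CD4SP or CD8SP cells, nor did the difference of the genotype effects between the cell types (lowest edgeR adjusted p = 0.617). Of all residues and positions, 4.59% passed in alpha chains of CD4SP cells, 0% in alpha chains of CD8SP cells and 0% in beta chains of both. For the difference of the genotype effects 1.02% of alpha and 0% of beta rows passed. At an unadjusted p under 0.05, 1 of the 12 cysteine positions passed for the difference of the genotype effects, and none for KO against WT. Residues 1 base from a cysteine codon (F, G, R, S, W and Y) within 2 residues of the middle were called at 3 of 30 positions in alpha chains of CD4SP cells, all higher in KO, and at none in the other 3 cases.

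CD4SP and CD8SP cells, which are selected on MHC class II and class I, differed in where the beta cysteines lay. At the middle residue, cysteine took 10.8 ± 2.9 of 100000 beta reads in CD4SP and 26.2 ± 8.4 in CD8SP libraries (SD, n = 6 mice). The lowest, median and highest values were 8.05, 9.52 and 14.9 in CD4SP, against 14, 27.3 and 35.8 in CD8SP libraries, and the level was lower in CD4SP in 6 of 6 mice. The log2 fold change was -1.26 ± 0.40 (SE; edgeR adjusted p = 0.00301), from 42 clonotypes with 57 reads in CD4SP and 72 with 189 reads in CD8SP. At 1 residue after the middle it was -0.75 ± 0.32 (edgeR adjusted p = 0.0289), lower in 5 of 6 mice, from 61 and 83 clonotypes; leaving out a library of KO replicate 3, WT replicate 2 or WT replicate 3, of either cell type, ended this call (-0.71 to -0.41), as did DESeq2 (-0.76, adjusted p = 0.222). At 2 residues after the middle it was -0.54 ± 0.28 (edgeR adjusted p = 0.0829), and it passed when a library of KO replicate 3 was left out (-0.70, highest edgeR adjusted p = 0.0324) and without clonotypes of 1 read (-1.02, edgeR adjusted p = 0.0128).

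Before the middle, cysteine was higher in CD4SP cells at 2 positions. The log2 fold change was 0.46 ± 0.08 at 3 residues before the middle and 0.18 ± 0.05 at 4 before, higher in 6 of 6 mice at both, and -0.19 ± 0.06 at 5 before, lower in 5 of 6 mice (SE; edgeR adjusted p = 5.58e-09, 0.000374 and 0.00136). In all, 5 of 9 beta positions and 0 of 3 alpha positions passed. Most of the table differed between the cell types: 65.4% of all beta and 72.4% of all alpha residues and positions passed, so these counts by themselves do not set cysteine apart. The median log2 fold change of the 9 beta cysteine positions was -0.24 and that of all 205 beta rows was -0.03. Hydrophobic residues (F, I, L, M, V, W and Y) within 2 of the middle of beta chains were called at 23 of 35 positions, 7 of them higher in CD4SP, with a median of -0.11.

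**Figure D3:**
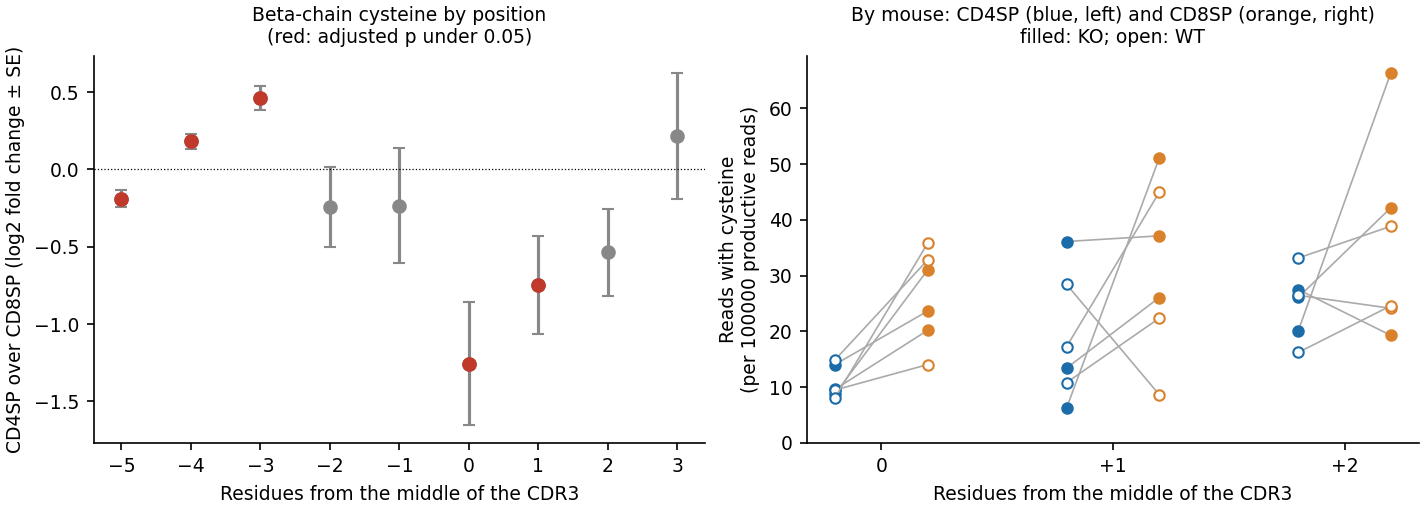
Left, log2 fold change of CD4SP over CD8SP for beta-chain cysteine at each distance in residues from the middle of the CDR3, with a standard error derived from edgeR's F statistic (red, adjusted p under 0.05). Right, beta reads with a cysteine at the middle and 1 and 2 residues after it, per 100000 productive reads, with CD4SP (blue) to the left of CD8SP (orange) and a line for each mouse; at the middle all 6 lines go up.

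V segments moved with these values. The positions 3 to 5 residues before the middle are where TRBV1 and TRBV31 put their residue 3. TRBV31 made up 18.2% ± 0.4 of beta clonotypes in CD4SP and 5.10% ± 0.14 in CD8SP libraries (SD, n = 6 mice). Within TRBV31 the order was the other way round: a cysteine at residue 3 was found in 0.584% ± 0.094 of its clonotypes in CD4SP and 1.07% ± 0.17 in CD8SP libraries, lower in 6 of 6 mice (exact sign-flip p = 0.031, adjusted p = 0.0625 over 8 such comparisons). TRBV1 CDR3s averaged 13.9 ± 0.05 residues in CD4SP and 14.2 ± 0.05 in CD8SP libraries, shorter in 6 of 6 mice (exact sign-flip p = 0.031, adjusted p = 0.0625), and a shorter CDR3 places residue 3 nearer to the middle. Whether TRBV31 usage or TRBV1 length caused the differences by position was not tested. Without TRBV1 and TRBV31, a cysteine was found in 0.198% ± 0.021 and 0.208% ± 0.031 of beta clonotypes of CD4SP and CD8SP libraries (exact sign-flip p = 0.5).

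The difference at the middle was also present without these segments. Without TRBV1 and TRBV31 the log2 fold change at the middle was -0.91 (edgeR adjusted p = 0.0261), but at 1 residue after it -0.36 (adjusted p = 0.337) and at 3 before it 0.13 (adjusted p = 0.757). With each clonotype counted once it was -0.78 at the middle (edgeR adjusted p = 0.0223). The share of beta reads with a cysteine within 2 residues of the middle was 0.104% in CD4SP and 0.152% in CD8SP libraries, lower in CD4SP in 5 of 6 mice (difference -0.05 ± 0.03 percentage points, exact sign-flip p = 0.0625, adjusted p = 0.8). The share of alpha clonotypes with an internal cysteine was 0.290% in CD4SP and 0.245% in CD8SP libraries, higher in 5 of 6 mice, and did not pass either (exact sign-flip p = 0.0938, adjusted p = 0.8).

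Out-of-frame rearrangements cannot make a receptor, so the residues read in them are not exposed to selection on the chain that carries them. Internal cysteines were less frequent in productive than in out-of-frame CDR3s. Per 1000 inner residues there were 0.182 ± 0.045 and 3.87 ± 0.33 in alpha chains of CD4SP cells, and 0.166 ± 0.032 and 4.07 ± 0.51 in those of CD8SP cells (SD, n = 6 mice). In beta chains without TRBV1 there were 0.245 ± 0.027 and 2.69 ± 0.60 in CD4SP, and 0.224 ± 0.023 and 2.08 ± 0.53 in CD8SP cells. With TRBV1 the values were 1.77 ± 0.10 and 3.37 ± 0.68 in CD4SP, and 1.71 ± 0.11 and 2.84 ± 0.47 in CD8SP cells. All 6 comparisons were lower in 6 of 6 mice (exact sign-flip p = 0.031, also after adjustment over the 6). Without clonotypes of 1 read the beta difference with TRBV1 in CD8SP cells, -1.06 per 1000, lost its call (exact sign-flip p = 0.0625). The frames differ, however, in which bases they read. Of the 710 out-of-frame alpha cysteines, 618 (87.0%) lay in J bases read outside the frame of J, and TRAJ21, TRAJ24 and TRAJ17 alone gave 144, 113 and 109 of them.

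The comparison was therefore repeated on codons with at least 1 N or D base and no J base, each clonotype counted once; this step was added after the data had been seen. In beta chains, 0.543 ± 0.062 of 1000 such codons were cysteine in productive and 3.31 ± 1.52 in out-of-frame rows of CD4SP libraries. In CD8SP libraries these were 0.407 ± 0.061 in productive and 3.17 ± 0.64 in out-of-frame rows (SD, n = 6 mice). The ratios were 0.164 and 0.128, lower in 6 of 6 mice in both (exact sign-flip p = 0.031). Without clonotypes of 1 read the CD4SP difference, -2.75 per 1000, lost its call (exact sign-flip p = 0.0625). The out-of-frame values rest on 72 and 57 cysteines, the productive ones on 477 and 353. The lowest out-of-frame value of any library was 1.76 and the highest productive value was 0.629, so no libraries overlapped.

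Of the 20 residues, cysteine had the lowest ratio in beta chains, 0.147 over 12 libraries. Isoleucine followed with 0.706 and proline with 0.729, and the highest ratio was that of valine, 1.22. Cysteine, isoleucine, proline and arginine were lower in productive rows in 12 of 12 libraries, 20% of the residues. In alpha chains, cysteine took 0.963 ± 0.346 of 1000 such codons in productive and 2.10 ± 2.34 in out-of-frame rows of CD4SP libraries, and 1.07 ± 0.29 and 1.86 ± 1.25 in CD8SP libraries. Neither difference passed (exact sign-flip p = 0.312 and 0.219). The out-of-frame values rest on 13 and 12 cysteines, and the ratio of 0.513 ranked 3 of 20 from the lowest, after asparagine (0.495) and histidine (0.503). In alpha chains 10% of residues were lower in productive rows in every library, and cysteine was not among them (8 of 12 libraries). The plot of residue ratios shows both chains.

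**Figure D4:**
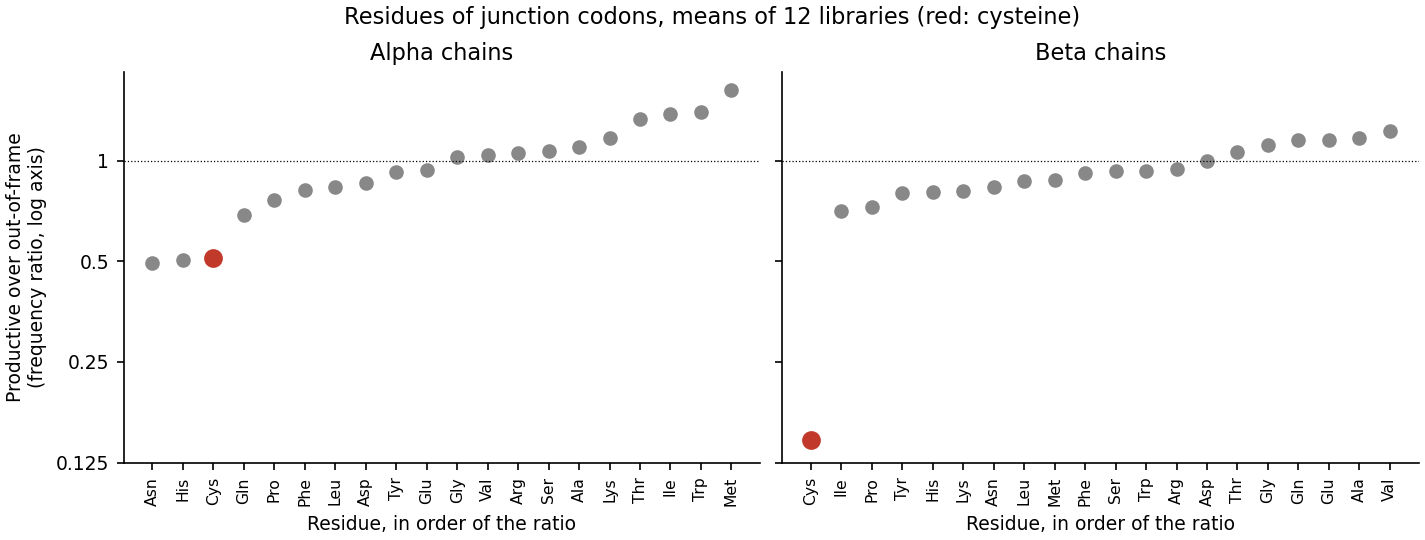
Frequency of each residue among junction codons (at least 1 N or D base, no J base) in productive rows over that in out-of-frame rows, as the ratio of means over 12 libraries on a log axis, residues in order of the ratio, cysteine in red. In beta chains cysteine stands apart at 0.147, with the next residue at 0.706; in alpha chains it is the third from the left at 0.513.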

How the data were processed

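Receptor libraries of 12 thymocyte samples were made with a SMARTer mouse TCR kit, sequenced on a MiSeq instrument and analysed by the authors with MiXCR, per the series design text; versions and filters are not given in the sources used here, and the build, mm10, is from the submitters' processing notes. The deposited values are read counts per clonotype, per the file headers. A deposited fraction, each count over the total of its file, served only as a check. The deposited score, the lowest base quality in the CDR3, was used to describe clonotypes (median 38 for alpha clonotypes with and without an internal cysteine, 38 and 58 for beta ones without TRBV1). Productive rows with TRAV and TRAJ, or TRB, best hits were kept, alleles dropped. Segment positions are from RefSeq's GRCm38 gene table (179 of 179 segments matched), and printed sequences are from the deposited rows.

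Shares were compared by exact two-sided sign-flip tests, within 3 pairs or 6 mice, adjusted by Benjamini-Hochberg. Residue by position tables were tested with edgeR 4.0.16 in R 4.3.3 (quasi-likelihood, filterByExpr, productive reads as library size), with the replicate number as a block for genotype and the mouse for cell type, and checked on simulated counts. The standard error of an edgeR log2 fold change was derived as its absolute value over the square root of the F statistic. DESeq2 1.42.0 and the methods' paired test were alternatives. The pairs are those of the series design text; V segment usage of the same-numbered KO and WT libraries did not deviate together (r = -0.553 to 0.501), while libraries from 1 mouse (CD4SP with CD8SP) correlated at 0.194 to 0.635 in beta and -0.0886 to 0.399 in alpha chains. Genotype fits took the libraries of a mouse as independent, so their p-values may be inexact. No libraries were duplicates: at most 11.4% of the clonotypes of the smaller library were shared.

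Members, lists and tests were chosen with earlier results of these data known. Named segments were, for each chain, the 5 with the highest share among those with at least 500 clonotypes, the 5 with the most clonotypes and the lowest; named clonotypes were the 8 in the most libraries and the largest of each group. Clonotypes without TRBV1 were picked by the same rule after the data were seen, as were the comparisons without TRBV1 and TRBV31, of junction codons and of reads per clonotype.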

Additional observations from a re-analysis of the deposited data

Results flagged for a closer look

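In CD8SP libraries, the lowest of 6 shares of beta reads with an internal cysteine was 1.76%, in WT replicate 3, set apart from the other 5, which lay between 2.01% and 2.10%. Among CD4SP libraries, WT replicate 3 stood apart with 6.17 cysteines per 1000 out-of-frame beta junction codons (19 of 3079 codons), where the others had 1.76 to 3.36. In all, 40 groups of 6 libraries were examined for such a gap, and chance sets apart about 1 in 20.

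For beta clonotypes with a cysteine within 2 residues of the middle, the KO minus WT difference was -0.0332 percentage points in CD4SP minus CD8SP cells. All 3 pairs had a lower share in KO than in WT CD4SP cells and a higher share in KO than in WT CD8SP cells. The exact sign-flip test of the difference gave p = 0.25, the smallest that 3 pairs allow.

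Outside the chains compared, 5 of 1847 productive clonotypes with a delta or mixed alpha and delta segment pair held an internal cysteine (0.271%).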

How the results depend on the processing

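Differences in shares are in percentage points, in the order KO minus WT and CD4SP minus CD8SP. None of the share differences passed the threshold after adjustment, so a turned sign is a change of a small, uncalled value, and the cause was not tested. Without clonotypes of 1 read, CD4SP minus CD8SP in alpha chains turned to -0.0205 (reads), -0.000913 (clonotypes), -0.0118 (reads near the middle) and -0.00585 (clonotypes near the middle), KO minus WT of alpha clonotypes near the middle in CD4SP to -0.0249, and the genotype effect on beta clonotypes between cell types to -0.0307. With residue 4 to the third before the last as the window, KO minus WT in CD4SP turned to 0.0129 for alpha clonotypes, 0.000314 for alpha reads near the middle, -0.00412 for beta reads and -0.0096 for beta clonotypes, the genotype effect on beta clonotypes to -0.0275, and CD4SP minus CD8SP to -0.0387 for beta reads, and to -0.0404 (reads) and -0.0159 (clonotypes) without TRBV1. KO minus WT of alpha clonotypes in CD4SP was 0.00158 without 1-base neighbours and 0.0079 without tied segments, and of alpha reads near the middle 0.0165 without tied segments. Without TRBV1, KO minus WT in CD4SP was -0.0107 (beta reads) and -0.00188 (clonotypes), the genotype effect -0.0147 and CD4SP minus CD8SP of clonotypes 0.0342; without TRBV31 too, the last was -0.00962, and that of reads -0.0254. Beta reads near the middle, CD4SP minus CD8SP, passed at an unadjusted level without clonotypes of 1 read (-0.065, exact sign-flip p = 0.031) and by the methods' paired test (-0.0482, unadjusted p = 0.0144).

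Without clonotypes of 1 read, beta cysteines per 1000 residues in CD8SP (-1.06) and per 1000 junction codons in CD4SP (-2.75), productive minus out-of-frame, no longer passed. The join's share of codons, CD4SP minus CD8SP, turned in alpha chains to 0.139 percentage points by reads and 3.33 without clonotypes of 1 read, and in beta chains without TRBV1 to -1.22 by reads. Reads per beta clonotype without TRBV1, with a cysteine minus others, were 0.0089 in CD4SP and 0.223 in CD8SP without clonotypes of 1 read, the CD8SP value past the threshold, and -0.122 in CD4SP without the largest clonotypes. Near the middle they were -0.112 (without clonotypes of 1 read) and -0.256 (without TRBV31) in CD4SP, 0.0469 (without the largest) and 0.0814 (without TRBV31) in CD8SP, and -0.337 between cell types without TRBV31. None of these values near the middle passed the threshold. Without TRBV1 and TRBV31, 1 beta cysteine position was called between cell types in place of 5, and without TRBV1 the value 5 before the middle was 0.22. With no replicate block, 0 cysteine positions were called for genotype, as with it.

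Leaving out 1 mouse leaves 5, for which p cannot go below 0.0625. The exact tests over 6 mice that had passed therefore lost their call by construction, and kept their sign. Productive minus out-of-frame values ranged over -3.76 to -3.6 (CD4SP) and -4.02 to -3.73 (CD8SP) in alpha, -1.73 to -1.36 and -1.3 to -1.03 in beta, -2.57 to -2.24 and -2.02 to -1.75 in beta without TRBV1, and -3.1 to -2.19 and -2.94 to -2.6 for beta junction codons. Reads per clonotype ranged over -0.481 to -0.394 and -0.561 to -0.475 in alpha, -0.132 to -0.112 and -0.298 to -0.267 in TRBV1 chains, and -0.344 to -0.274 and 0.159 to 0.242 near the middle of other beta chains, with -0.567 to -0.452 between cell types. TRBV31 cysteine at residue 3 ranged over -0.531 to -0.449 and TRBV1 length over -0.234 to -0.200 residues.

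Leaving out a pair turned these uncalled values. KO minus WT in CD4SP ranged over -0.0799 to 0.0122 (alpha reads), -0.0641 to 0.0376 (alpha clonotypes), -0.0304 to 0.0269 and -0.0096 to 0.0400 (alpha reads and clonotypes near the middle), -0.0223 to 0.142 (beta reads) and -0.0116 to 0.000868 (beta reads near the middle). Without TRBV1 it was -0.0205 to 0.00349 (reads) and -0.0112 to 0.0104 (clonotypes) in CD4SP, and -0.0129 to 0.0422 and -0.0100 to 0.0402 in CD8SP. In CD8SP alpha clonotypes near the middle gave -0.0507 to 0.00386. The genotype effect between cell types ranged over -0.0156 to 0.0745, -0.0128 to 0.0914, -0.0295 to 0.0847 and -0.0135 to 0.0872 in alpha (reads, clonotypes, and both near the middle), -0.0552 to 0.0888 for beta clonotypes and -0.0451 to 0.00215 without TRBV1. With 1 mouse left out in place of a pair, CD4SP minus CD8SP ranged over -0.00243 to 0.0251 (alpha reads near the middle), -0.0364 to 0.00669 (beta clonotypes) and -4.13 to 0.0728 (join's share in alpha). Of alpha cysteine positions, 0 to 1 was called between cell types, the 1 without KO CD4SP or KO CD8SP replicate 1. Leaving out libraries moved the beta log2 fold change to -0.58 to 0.013 at 1 residue before the middle, -0.698 to -0.205 at 2 after and -0.092 to 0.497 at 3 after.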
